A study of Homo sapiens with 9 samples.

Results

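The NRF2 antioxidant program was followed through RNA sequencing of A549 cells, a human lung adenocarcinoma line, after silencing of the DNA polymerase gene REV1. It was taken as 35 genes chosen by symbol for their place in this pathway from the 18143 listed genes, and all 35 were found and passed the filter on low counts. All cells had been transfected 48 h earlier. There were 3 groups of 3 replicates: a scramble control and 1 group for each REV1-directed siRNA, named SiREV1#1 and SiREV1#2. Nothing in the labels says that the replicates came from separate cultures. The study's methods say in general that experiments on cells were repeated independently, without naming these libraries, so p-values measure the spread between these libraries, which may be technical.

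NRF2, the product of NFE2L2, is a transcription factor that is held in the cytoplasm and marked for degradation by KEAP1. When KEAP1 is disabled, NRF2 enters the nucleus, pairs with a small MAF protein and switches on genes for glutathione and thioredoxin, for NADPH supply, for detoxification of quinones and aldehydes, and for export of conjugates. A549 cells carry a mutant KEAP1, so the program runs at a high level in this line without any added oxidant. The comparisons therefore concern a program that was already active in the scramble cells of a single KEAP1-mutant line, with no KEAP1-intact cells beside them.

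Among the main results, no member passed the edgeR test after either siRNA when libraries of a group were treated as plain replicates. Of all genes, 0.296% passed there after SiREV1#1 and 0% after SiREV1#2. Replicate 1 stood apart from replicates 2 and 3 in all 3 groups. Compared within same-numbered replicates, NQO1 fell and GPX2 and ABCC3 rose after SiREV1#1 in edgeR, a share of members (8.57%) below that of all genes (12.3%), and the ABCC3 call was lost in several fits without 1 library. After SiREV1#2, within same-numbered replicates, no member passed in edgeR (against 1.91% of all genes), and limma called ALDH3A1 alone (2.86%, against 4.59%). PGD and EPHX1 were 20.6 and 17.8 times as high in replicate 1 as in replicates 2 and 3 after SiREV1#2, against 3.13 and 3.6 times in the scramble group.

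NRF2 binds the antioxidant response element, whose core was searched here as TGACNNNGC on both strands. The windows cover 250 bases before to 50 after each listed start in RefSeq, GRCh38.p14, and 28 of the 35 members matched this table with 40 windows. The core stood in 11 of those 40 windows (27.5%) and in 4687 of 35116 windows of the same length over all genes (13.3%). The first letters of this core also begin the AP-1 element, and a match describes letters and not a bound site. The windows of 5 members that hold the core are shown as examples, with the core in capitals. KEAP1 and ME1, with 2 matches each, and CBR1, IDH1 and PIR also held the core and are not shown. The window of NQO1 held none, and TXNRD1 held 3 matches in its windows, of which 1 is shown.

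GCLM: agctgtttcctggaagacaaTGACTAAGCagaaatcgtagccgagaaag
GPX2: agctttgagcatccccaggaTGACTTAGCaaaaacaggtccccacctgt
PGD: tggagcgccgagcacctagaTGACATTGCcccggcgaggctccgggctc
EPHX1: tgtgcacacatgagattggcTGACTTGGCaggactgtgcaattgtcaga
TXNRD1: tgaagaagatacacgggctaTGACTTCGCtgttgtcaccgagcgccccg

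The GCLM window lies at chr1:93909436-93909484 and the GPX2 window at chr14:64942839-64942887, and both are read on the plus strand while the genes run on the minus strand. The PGD window lies at chr1:10398843-10398891 and is read on the minus strand, opposite to the gene. The EPHX1 window at chr1:225825256-225825304 and the TXNRD1 window at chr12:104215660-104215708 are read on the plus strand, as both genes run. Counted along each gene from the listed start of its window, the most upstream base of the core lay at -34 in GCLM, -122 in GPX2, -201 in PGD, -78 in EPHX1 and -99 in TXNRD1. EPHX1 has 3 listed starts, and the windows of the other two, both upstream, held no core.

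REV1 itself served as the check of the labels. Its FPKM, a level per gene length and sequencing depth that the authors deposited, was 7.23, 7.90 and 8.44 in the scramble libraries. The SiREV1#1 libraries held 2.60, 2.92 and 3.36 FPKM and those of SiREV1#2 held 3.62, 3.36 and 3.18, so neither silenced group overlapped the scramble group. With the replicate number as a block, the edgeR log2 fold change was -1.26 after SiREV1#1 (SE 0.125, adjusted p = 0.00165) and also -1.26 after SiREV1#2 (SE 0.148, adjusted p = 0.00989). Without the block, the edgeR adjusted p was 0.042 for SiREV1#1 and 0.154 for SiREV1#2.

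Total counts ran from 18121913 to 20166451 in the libraries with counts of their own, except SiREV1#1 replicate 1, which held 13059082. SiREV1#2 replicate 3 was left out of every count test because its deposited count column repeats that of replicate 2 in full. Its FPKM column is its own, with 3.07% of detected genes at the same value as in replicate 2. Of the epithelial markers KRT8, KRT18, KRT7, EPCAM and CDH1, none was below 1 FPKM throughout any group. EPCAM was near the floor, at 1.56, 0.73 and 0.79 FPKM in scramble and at most 2.38 FPKM in any library. CDH1 ran from 6.32 to 43.79 FPKM. The summed level lay between 5680 and 11600 FPKM, nearly all of it from the keratins KRT8, KRT18 and KRT7. All 5 markers of lung epithelium (NKX2-1, SFTPB, SFTPC, SFTPA1, NAPSA) summed to at most 3.44 FPKM, so the lung identity in the label was not visible in them. The 4 fibroblast and 3 endothelial markers summed to at most 1.72 and 0.14 FPKM, and PTPRC stayed below 1 FPKM. CD68 carried the leukocyte sum, from 18.5 to 82.1 FPKM. In bulk libraries, fewer cells of a kind and less RNA per cell cannot be told apart.

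In the scramble cells many members were among the most abundant genes. The ranks rest on a mean of 3 libraries, of which replicate 1 was above the other replicates for 30 of the 35 members. By mean FPKM, 11 of the 35 members stood in the top 1% of the 18143 genes, 20 in the top 5% and 28 in the top 10%. The aldo-keto reductases, which reduce aldehydes, ketones and steroids with NADPH, led the list with AKR1B10 at rank 34, AKR1C3 at rank 42, AKR1C1 at rank 49 and AKR1C2 at rank 59. CBR3, a carbonyl reductase, was lowest at rank 10686, with a scramble mean of 1.70 ± 2.16 FPKM (SD, n = 3). The SD exceeded the mean there, as it did for GCLM (16.0 ± 19.8), SRXN1 (82.4 ± 92.1) and GPX2 (176 ± 248), each with a single library far above the others.

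**Figure D1:**
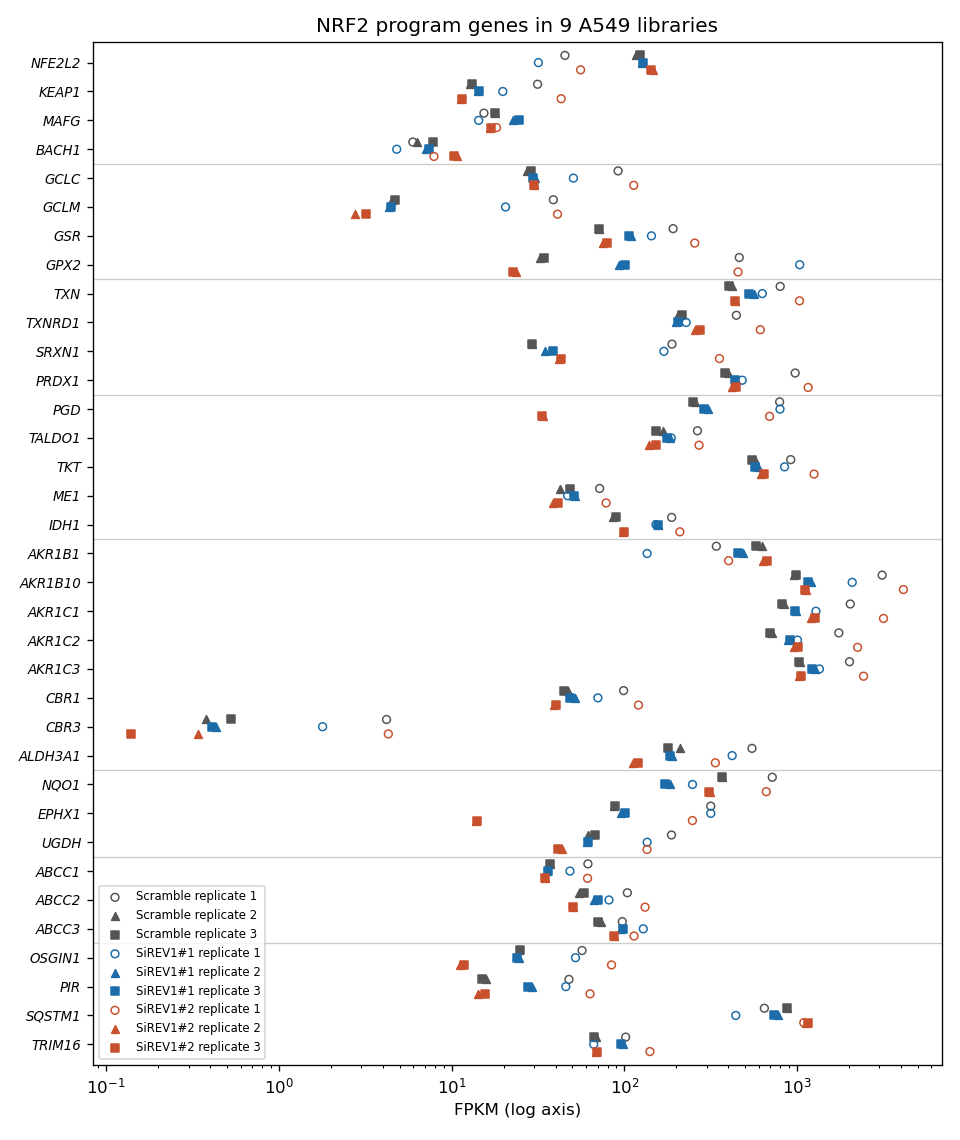
FPKM of the 35 NRF2 program genes on a log axis, 1 point per library, with open circles for replicate 1, triangles for replicate 2 and squares for replicate 3, and with gray lines between groups of genes by role. Replicates 2 and 3 lie close together for nearly every gene, while replicate 1 lies to the right for most and to the left for NFE2L2, with scramble values of 45.29 against 116.27 and 122.51 FPKM.

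Most members differed between replicate 1 and the other replicates. The gap is described as the log2 ratio of replicate 1 to the mean of replicates 2 and 3 within a group, on FPKM + 0.1, and was not tested because this gap was known beforehand. The median over the 35 members was 1.10 in scramble, 0.42 in SiREV1#1 and 1.36 in SiREV1#2, against medians of -0.05, -0.23 and -0.09 over the 11429 genes with a mean FPKM above 1. Replicate 1 was more than 2-fold higher in every group for 9 of 35 members (25.7%), against 5.28% of the 11429 genes. A gap of more than 2-fold the other way in every group was found for NFE2L2 alone (2.86% of members), against 8.82% of genes. Without a limit of size, 27 members were higher in replicate 1 in every group (77.1%, against 29.7% of genes) and 4 were lower (11.4%, against 42.3%), namely NFE2L2, BACH1, AKR1B1 and SQSTM1. The labels name no batch, date or culture, and what sets replicate 1 apart was not tested.

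**Figure D2:**
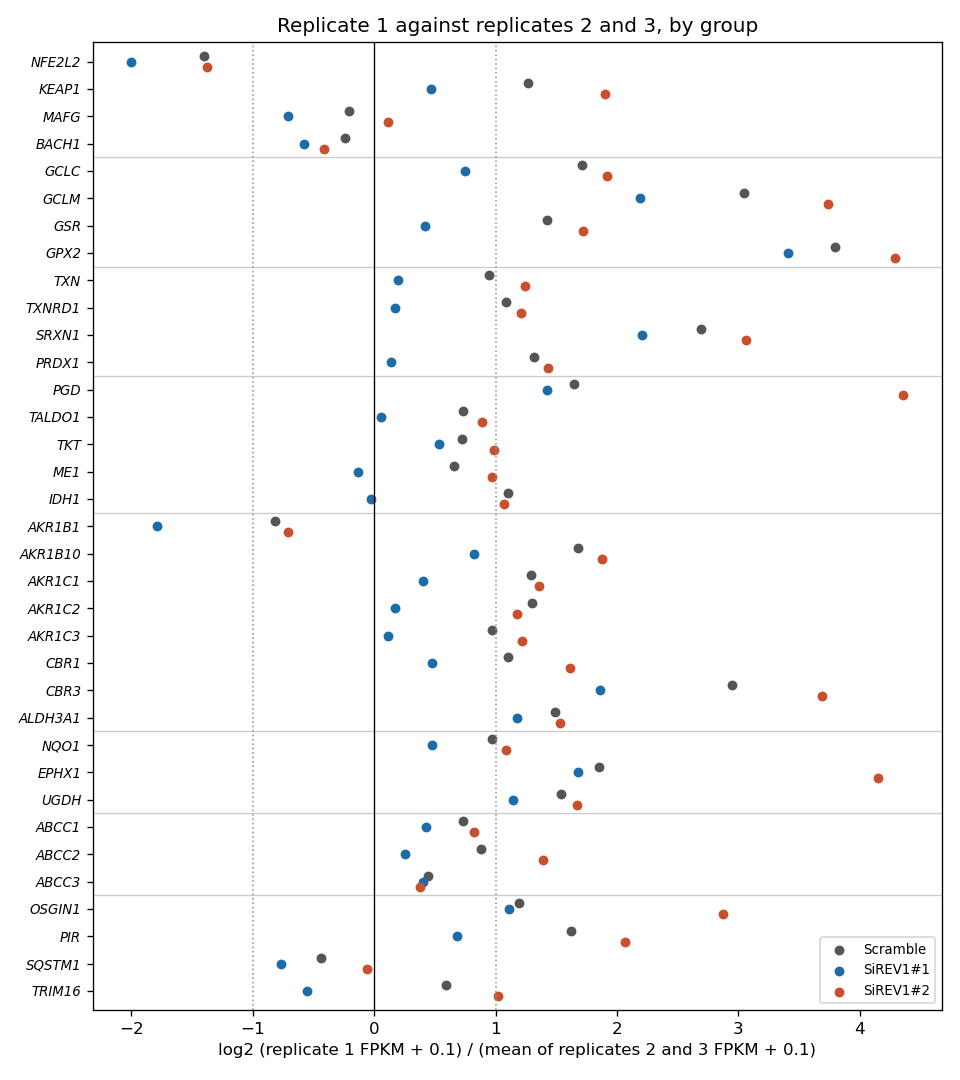
Log2 ratio of replicate 1 to the mean of replicates 2 and 3 (FPKM + 0.1) for each member in scramble, SiREV1#1 and SiREV1#2, with dotted lines at a 2-fold difference. GPX2 lies at 3.80, 3.41 and 4.29 and GCLM at 3.05, 2.19 and 3.74, while NFE2L2 lies at -1.40, -2.0 and -1.38.

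NRF2 and its regulators did not share a direction across replicates. NFE2L2 was at 45.29, 116.27 and 122.51 FPKM in scramble replicates 1 to 3, at 31.79, 125.92 and 128.64 after SiREV1#1, and at 55.81, 146.73 and 143.26 after SiREV1#2. Replicate 1 was the low library in each group, 2.63-fold, 3.99-fold and 2.60-fold below the mean of the other two. Within the block, the edgeR log2 fold change of NFE2L2 was -0.03 after SiREV1#1 (SE 0.143, adjusted p = 0.929) and 0.38 after SiREV1#2 (SE 0.166, adjusted p = 0.283). Without the block these values were 0.05 and 0.12, with edgeR adjusted p of 0.998 and 1.

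KEAP1, the adaptor that delivers NRF2 to a ubiquitin ligase, was at 31.46, 12.85 and 13.13 FPKM in scramble, 19.78, 14.15 and 14.33 after SiREV1#1, and 43.08, 11.33 and 11.53 after SiREV1#2. Here replicate 1 was the high library in each group, the reverse of NFE2L2. Without the block, the edgeR log2 fold change of KEAP1 was -0.16 after SiREV1#1 (SE 0.558, adjusted p = 0.998) and 0.55 after SiREV1#2 (SE 0.617, adjusted p = 1). With the block the edgeR values were -0.04 (adjusted p = 0.943) and 0.25 (adjusted p = 0.697), both short of the threshold. After SiREV1#2, KEAP1 was 1.37 times scramble in pair 1 but 0.883 and 0.879 times in pairs 2 and 3. BACH1, a repressor that competes with NRF2 for the same DNA element, was at 5.96, 6.31 and 7.81 FPKM in scramble, 4.81, 7.14 and 7.38 after SiREV1#1, and 7.90, 10.74 and 10.32 after SiREV1#2. In every same-numbered set the SiREV1#2 library was the highest. MAFG, a small MAF partner of NRF2, ranged only from 14.34 to 24.44 FPKM over the 9 libraries.

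The glutathione genes had the highest median replicate gap of any group of members by role, at 2.38, 1.47 and 2.83 log2 units in scramble, SiREV1#1 and SiREV1#2. GCLC, the catalytic subunit of the first enzyme of glutathione synthesis, was at 92.00, 27.26 and 29 FPKM in scramble, 50.71, 30.40 and 29.76 after SiREV1#1, and 113.34, 29.95 and 29.84 after SiREV1#2. GCLM, the modifier subunit of the same enzyme, was at 38.81, 4.52 and 4.67 FPKM in scramble, 20.51, 4.34 and 4.47 after SiREV1#1, and 41.02, 2.76 and 3.18 after SiREV1#2. Both subunits were high only in replicate 1, by 3.26-fold for GCLC and 8.29-fold for GCLM in scramble. The ratio of the siRNA to the scramble library changed with the replicate as well, since GCLM after SiREV1#2 was 1.06 times scramble in replicate 1 and 1.62-fold and 1.45-fold lower in replicates 2 and 3. GSR, which regenerates reduced glutathione, ran from 71.38 to 255.53 FPKM.

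GPX2 (NCBI Gene 2877, chr14:64939152-64942905 in GENCODE v29, minus strand) encodes an epithelial glutathione peroxidase. It was at 462.81, 32.31 and 34.04 FPKM in scramble, 1035.72, 93.54 and 100.73 after SiREV1#1, and 455.25, 23.63 and 22.74 after SiREV1#2. In each of the 3 replicates the SiREV1#1 library was the highest, 2.24, 2.89 and 2.95 times its scramble library. Across replicates the groups overlapped, because replicate 1 was 13.9-fold above the others in scramble. Within the block, GPX2 rose after SiREV1#1 by 1.5 on the log2 scale (SE 0.16, edgeR adjusted p = 0.00218), while without the block the value was 1.39 (SE 1.56, edgeR adjusted p = 0.934). After SiREV1#2 the blocked edgeR value was -0.17 (SE 0.184, adjusted p = 0.717).

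Among the thioredoxin genes, TXNRD1, the selenoprotein that reduces thioredoxin, was at 445.24, 203.60 and 214.31 FPKM in scramble, 227.98, 200.16 and 203.93 after SiREV1#1, and 612.57, 256.02 and 274.26 after SiREV1#2. SiREV1#2 was above scramble in 3 of 3 pairs, by 1.38, 1.26 and 1.28 times, and SiREV1#1 was below it in 3 of 3, at 0.512, 0.983 and 0.952 times. SRXN1, which repairs overoxidised peroxiredoxins, was at 188.76, 29.27 and 29.11 FPKM in scramble, 169.45, 34.73 and 38.55 after SiREV1#1, and 355.31, 42.04 and 43.15 after SiREV1#2. SRXN1 was highest after SiREV1#2 in each replicate, but 84.7% of the 50-base stretches of its transcripts also occur in the overlapping gene AL121758.1, so its counts may be shared. TXN and PRDX1 were abundant throughout, at 404.24 to 1032.87 and 384.73 to 1158.63 FPKM.

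Of the NADPH-supply genes, the most uneven was PGD (NCBI Gene 5226, chr1:10398592-10420144, plus strand), the third enzyme of the pentose phosphate pathway. PGD was at 792.53, 256.56 and 249.95 FPKM in scramble and at 796.26, 304.70 and 289.92 after SiREV1#1. After SiREV1#2 it was at 692.89 in replicate 1 but at 33.76 and 33.43 in replicates 2 and 3. The log2 ratio to scramble was thus -0.19 in pair 1 and -2.92 and -2.90 in pairs 2 and 3, all 3 below 0 but very unequal in size. The other genes of this group, TALDO1, TKT, ME1 and IDH1, had log2 ratios between -0.25 and 0.45 after SiREV1#2 in the same pairs. IDH1, the cytosolic isocitrate dehydrogenase, was at 155.67 and 155.94 FPKM in replicates 2 and 3 of SiREV1#1, against 85.42 and 89.58 in scramble.

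EPHX1 (NCBI Gene 2052, chr1:225810092-225845563, plus strand), the microsomal epoxide hydrolase, had a like profile over the libraries. It was at 316.47, 87.48 and 88.03 FPKM in scramble, 316.45, 95.75 and 101.29 after SiREV1#1, and 247.80, 13.75 and 13.95 after SiREV1#2. Its log2 ratio after SiREV1#2 was -0.35 in pair 1 and -2.66 and -2.65 in pairs 2 and 3. OSGIN1, an oxidative stress-induced growth inhibitor, was at 56.89, 24.68 and 24.91 FPKM in scramble, 52.16, 24.45 and 23.75 after SiREV1#1, and 84.28, 11.14 and 11.79 after SiREV1#2. It lay above scramble in pair 1 (0.57) and below it in pairs 2 and 3 (-1.14 and -1.07). PGD, EPHX1 and OSGIN1 are set side by side here because of these values, which were seen first.

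With all replicates in the block, edgeR gave PGD a log2 fold change of -1.28 after SiREV1#2 (SE 0.613, adjusted p = 0.329) and EPHX1 one of -1.30 (SE 0.508, adjusted p = 0.237), so neither passed. In replicates 2 and 3 alone, edgeR gave -2.90 for PGD (SE 0.0871, adjusted p = 1.02e-09) and -2.68 for EPHX1 (SE 0.0926, adjusted p = 3.35e-09). In that fit SiREV1#2 has 1 count library, whose spread is assumed to equal that of the other groups. As for shared reads, 7.03% of the 50-base stretches of PGD also occur in the pseudogene PGDP1, and EPHX1 overlaps exons of TMEM63A on the other strand. Whether strand was used in counting is not given in the sources used here.

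**Figure D3:**
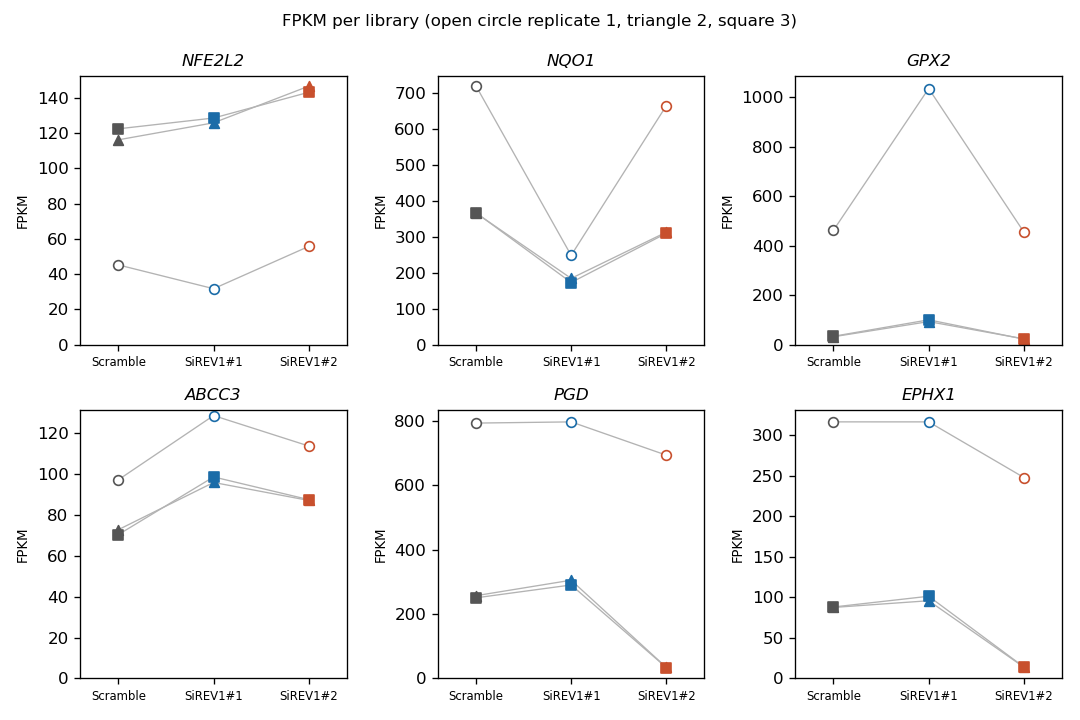
FPKM of NFE2L2, NQO1, GPX2, ABCC3, PGD and EPHX1 in each library, with a line joining libraries of the same replicate number and each vertical axis starting at 0. SiREV1#1 is the lowest of the 3 groups for NQO1 in every replicate and the highest for GPX2 and ABCC3, while PGD and EPHX1 lie at no more than 33.76 and 13.95 FPKM in replicates 2 and 3 of SiREV1#2.

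NQO1 (NCBI Gene 1728, chr16:69706996-69726951, minus strand), the quinone reductase that is the usual reporter of NRF2 activity, had the lowest fitted log2 fold change of all members after SiREV1#1. It was at 718.51, 365.60 and 366.60 FPKM in scramble, 248.07, 184.12 and 172.68 after SiREV1#1, and 663.60, 312.47 and 309.38 after SiREV1#2. Group means were 484 ± 203, 202 ± 40.6 and 428 ± 204 FPKM (SD, n = 3), and all 3 SiREV1#1 libraries lay below every library of the other groups. Within the block, NQO1 fell by 1.12 on the log2 scale after SiREV1#1 (SE 0.146, edgeR adjusted p = 0.00445). Without the block the edgeR value was -1.17 (SE 0.406, adjusted p = 0.372), which does not pass. After SiREV1#2 the edgeR value was 0.06 without the block (SE 0.447, adjusted p = 1) and -0.12 with it (SE 0.169, adjusted p = 0.785). UGDH, which makes UDP-glucuronate for conjugation, was at 187.49, 61.54 and 67.36 FPKM in scramble, 135.57, 60.92 and 61.78 after SiREV1#1, and 135.27, 43.80 and 41.20 after SiREV1#2, below its scramble library in every pair of both siRNAs.

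The aldo-keto reductases stood high in replicate 1. AKR1B10, which reduces retinal and reactive aldehydes, was at 3107.75, 954.26 and 984.71 FPKM in scramble, 2085.20, 1206.01 and 1163.87 after SiREV1#1, and 4126.50, 1126.20 and 1118.70 after SiREV1#2. AKR1C1, a steroid-reducing enzyme, was at 2032.00, 839.82 and 817.04 FPKM in scramble, 1285.16, 985.56 and 968.02 after SiREV1#1, and 3165.18, 1204.76 and 1265.60 after SiREV1#2. Both were below scramble after SiREV1#1 in replicate 1 and above it in replicates 2 and 3, and above scramble after SiREV1#2 in all 3. For AKR1C1, 28.7% of 50-base stretches occur in other genes, nearly all in AKR1C2, whose own share is 52.2%, and AKR1B10 shares 17.4%, mostly with AKR1B15. The split of counts among these paralogs is therefore uncertain.

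AKR1B1, the aldose reductase, went against its relatives: replicate 1 was the low library in each group, at 340.94 against 626.28 and 577.52 FPKM in scramble. CBR3 was at 4.20, 0.38 and 0.53 FPKM in scramble, 1.79, 0.43 and 0.41 after SiREV1#1, and 4.30, 0.34 and 0.14 after SiREV1#2, near the limit of detection outside replicate 1. ALDH3A1, an aldehyde dehydrogenase, was at 548.28, 211.36 and 179.37 FPKM in scramble, 420.84, 188.95 and 183.04 after SiREV1#1, and 336.35, 112.83 and 119.48 after SiREV1#2. It was lowest after SiREV1#2 in each replicate, with a blocked edgeR log2 fold change of -0.74 against scramble (SE 0.155, adjusted p = 0.0607) that fell short of the threshold.

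Of the export pumps, ABCC3 (NCBI Gene 8714, chr17:50634777-50692252, plus strand), which carries glucuronides and bile salts out of the cell, was at 97.26, 72.81 and 70.41 FPKM in scramble, 128.71, 95.94 and 98.65 after SiREV1#1, and 113.78, 87.12 and 87.51 after SiREV1#2. The SiREV1#1 libraries were 1.32, 1.32 and 1.40 times their scramble libraries, so the ratio was even across replicates. Within the block ABCC3 rose by 0.49 on the log2 scale (SE 0.12, edgeR adjusted p = 0.037), against 0.50 without it (SE 0.252, edgeR adjusted p = 0.629). The blocked call did not pass when any 1 scramble library, SiREV1#1 replicate 2 or SiREV1#1 replicate 3 was left out. ABCC1 and ABCC2 ranged from 34.54 to 61.53 and from 50.10 to 131.78 FPKM.

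SQSTM1 encodes p62, which binds KEAP1 and releases NRF2. It was at 646.51, 878.39 and 872.39 FPKM in scramble, 441.72, 775.59 and 731.84 after SiREV1#1, and 1093.50, 1122.40 and 1154.25 after SiREV1#2. SiREV1#1 was below and SiREV1#2 above scramble in every replicate, and all 3 SiREV1#2 libraries lay above all others. PIR and TRIM16 were above scramble after SiREV1#1 in replicates 2 and 3 (1.84 and 1.85 times for PIR, 1.43 and 1.44 for TRIM16) and below it in replicate 1. For TRIM16, 57.8% of 50-base stretches also occur in other genes, most of them in AC005324.3.

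Across the 35 members, edgeR without a block called none at an adjusted p under 0.05 in any of the 3 contrasts. The background was 0.296% of 14205 tested genes after SiREV1#1, 0% after SiREV1#2 and 0.676% between the siRNAs. At an unadjusted p under 0.05 edgeR gave 1, 0 and 2 members (2.86, 0 and 5.71%), against 9.75, 5.48 and 12.4% of all genes. DESeq2 called no member after adjustment, against 4.01, 1.52 and 6.18% of all genes. It gave GPX2 no adjusted p after SiREV1#1 or between the siRNAs, so GPX2 was not judged there. The biological coefficient of variation of the edgeR fit was 0.412. In that fit replicate 1 makes up 1 of 2 SiREV1#2 count libraries but 1 of 3 scramble libraries, and 31 of 35 members had a positive value after SiREV1#2 (median 0.48, against 0.02 over all genes).

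With the replicate block the coefficient of variation was 0.161. After SiREV1#1, 3 of 35 members passed (8.57%, against 12.3% of all genes tested), 2 higher and 1 lower. After SiREV1#2 edgeR called 0 of 35 members (against 1.91% of genes), with 7 at an unadjusted p under 0.05 (20.0%, against 18.1%). For the same contrast, limma on log2(FPKM + 1) with the block called 1, ALDH3A1 (2.86%, against 4.59%). At the adjusted threshold the shares of members were thus no larger than the background in either comparison. The blocked counts depended on SiREV1#1 replicate 1, the library of lowest depth: without it, 10 members passed after SiREV1#1 (28.6%, against 24.3% of genes) and 8 after SiREV1#2 (22.9%, against 11.7%). Leaving out SiREV1#2 replicate 1 leaves that siRNA with 1 count library, whose spread is assumed from the other groups. Calls from that fit are therefore not given.

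Compared directly with the block, the 2 siRNAs differed in 5 of 35 members (14.3%, against 17.6% of genes). NQO1 was lower after SiREV1#1 than after SiREV1#2 by a log2 difference of -1.0 (SE 0.169, edgeR adjusted p = 0.0083) and GPX2 was higher by 1.67 (SE 0.192, edgeR adjusted p = 0.00224). SQSTM1 was lower after SiREV1#1 by -0.86 (SE 0.185, edgeR adjusted p = 0.019) and BACH1 by -0.60 (SE 0.146, edgeR adjusted p = 0.0294), while ALDH3A1 was higher by 0.66 (SE 0.156, edgeR adjusted p = 0.0259). Only GPX2 and NQO1 passed in every blocked fit that left out 1 library. REV1 itself showed a log2 difference of 0.00 between the siRNAs (SE 0.148, edgeR adjusted p = 0.995).

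Replicates 2 and 3 alone, which lie close together, gave a coefficient of variation of 0.0494 and many more calls. SiREV1#2 has 1 count library in this edgeR fit, so its calls rest on a spread taken from the other groups. After SiREV1#1, 22 of 35 members passed in edgeR (62.9%, against 46.5% of all genes), 19 higher and 3 lower (AKR1B1, SQSTM1 and NQO1). After SiREV1#2, 17 passed (48.6%, against 38.4%), 9 higher and 8 lower, and between the siRNAs 27 passed (77.1%, against 54.4%). The lower genes after SiREV1#2 were PGD, EPHX1, OSGIN1, ALDH3A1, GCLM, UGDH, GPX2 and NQO1.

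Same-numbered pairs, which use the FPKM of all 9 libraries, were counted by the sign of the ratio and not tested. After SiREV1#1, 3 members were higher than scramble in 3 of 3 pairs (8.57%, against 19.6% of the 11429 genes): GPX2, PGD and ABCC3. Another 8 were lower in 3 of 3 (22.9%, against 35.5%). After SiREV1#2, 16 members were higher in 3 of 3 pairs (45.7%, against 25.9%), among them NFE2L2, BACH1, TXNRD1, SRXN1, AKR1C1 and SQSTM1, and 7 were lower (20.0%, against 29.7%). Both sets of ratios share the same scramble libraries.

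The pairs after SiREV1#1 did not match one another. In pair 1, 32 of 35 members lay below scramble, with a median log2 ratio of -0.49. Over the 11429 genes with a mean FPKM above 1 the median was -0.21. In pairs 2 and 3, 26 and 25 members lay above scramble, with medians of 0.16 and 0.18 against -0.03 and -0.02 over those 11429 genes. After SiREV1#2 the medians were 0.29, -0.01 and 0.05 in pairs 1 to 3. The low pair contains the shallowest library, whose part in the result was not tested.

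**Figure D4:**
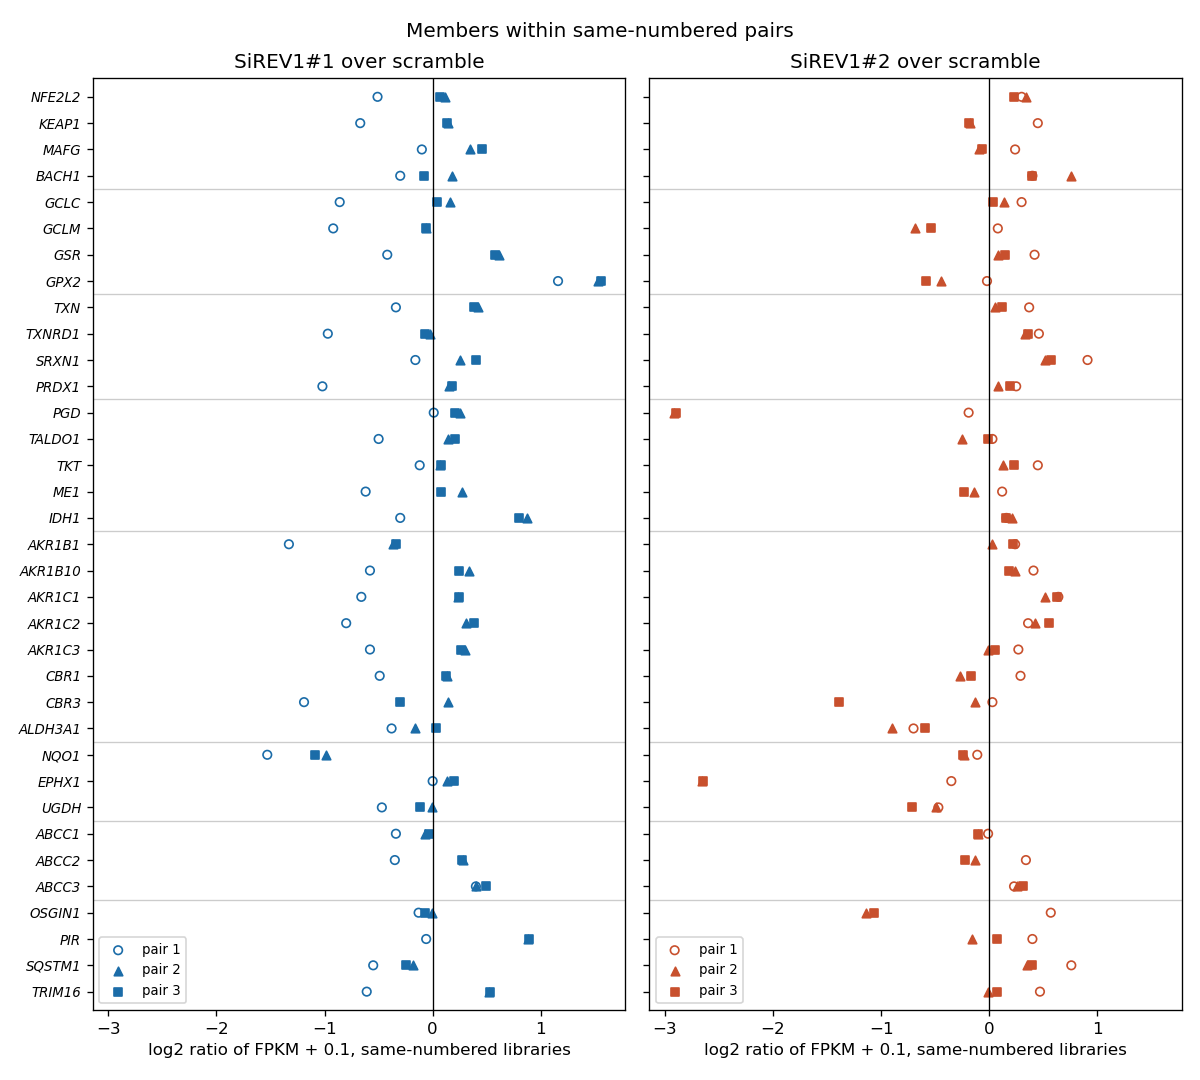
Log2 ratio of each siRNA library to the scramble library of the same replicate number (FPKM + 0.1) for the 35 members, with SiREV1#1 on the left and SiREV1#2 on the right and open circles for pair 1. NQO1 lies at -1.53, -0.99 and -1.09 on the left, and PGD lies at -0.19, -2.92 and -2.90 and EPHX1 at -0.35, -2.66 and -2.65 on the right.

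A further list of 38 pathway genes outside the members held other NRF2 targets, relatives and regulators, of which 37 passed the filter on low counts. None passed in edgeR without the block, in any contrast. With the block, 3 passed after SiREV1#1 (8.11%, against 12.3% of all genes), 1 higher and 2 lower, and 2 after SiREV1#2 (5.41%, against 1.91%), both higher. MAFF, a small MAF protein, was at 2.37, 52.11 and 51.32 FPKM in scramble, 1.59, 36.45 and 36.47 after SiREV1#1, and 4.74, 109.93 and 112.70 after SiREV1#2. MAFF fell by 0.48 on the log2 scale after SiREV1#1 (SE 0.121, edgeR adjusted p = 0.0415) and rose by 1.08 after SiREV1#2 (SE 0.138, edgeR adjusted p = 0.0137), an opposite pair of calls whose difference was -1.56 (SE 0.142, edgeR adjusted p = 0.00121).

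NR0B1, a nuclear receptor without a DNA-binding domain that is abundant in KEAP1-mutant lung cancer lines, was at 36.36, 15.53 and 16.62 FPKM in scramble, 19.43, 10.08 and 12.24 after SiREV1#1, and 62.94, 20.23 and 22.02 after SiREV1#2. It fell by 0.58 on the log2 scale after SiREV1#1 with the block (SE 0.15, edgeR adjusted p = 0.0453). NFE2L1, an NRF2 relative that controls proteasome genes, rose by 0.49 there (SE 0.122, edgeR adjusted p = 0.0371), and its scramble libraries were level at 45.14, 44.91 and 45.91 FPKM. BACH2, a relative of BACH1, rose after SiREV1#2 by 1.86 (SE 0.348, edgeR adjusted p = 0.0428) from at most 0.23 FPKM in scramble. Between the siRNAs, NR0B1 and MAFF were lower and NFE2L1 higher after SiREV1#1.

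Replicate 1 was more than 2-fold higher in every group for 7 of these 38 genes (18.4%), among them HMOX1, FTL and CYP4F11. The share was 5.28% of the 11429 genes with a mean FPKM above 1, a limit not applied to the 38. Replicate 1 was more than 2-fold lower for 3 of 38 (7.89%, against 8.82% of the 11429 genes), which were SLC3A2, MAFF and MAFK. HMOX1, heme oxygenase 1, was chosen here after its values were seen. It was at 85.34, 23.01 and 22.88 FPKM in scramble, 76.27, 29.61 and 32.24 after SiREV1#1, and 80.15, 11.48 and 12.30 after SiREV1#2. The log2 ratios to scramble were -0.16, 0.36 and 0.49 after SiREV1#1 and -0.09, -1.0 and -0.89 after SiREV1#2.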

How the data were processed

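RNA sequencing libraries of A549 cells were analysed from the values the authors deposited for each library: expected counts per gene, not normalized (42.6% of values are not whole), and FPKM rounded to 2 decimals. Per the labels, the submitters' processing notes name StringTie 1.3.3b and hg38, without saying which step made which value. The aligner is not given in the sources used here. Groups came from the labels. Members and gene lists were chosen with earlier results of these data known.

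Expected counts were rounded, filtered (filterByExpr), scaled by TMM and tested with edgeR 4.0.16 (quasi-likelihood, R 4.3.3, 3 groups in 1 fit, 8 libraries), with Benjamini-Hochberg adjustment over all genes tested and a threshold of 0.05. Alternatives used a replicate block, DESeq2 1.42.0, limma 3.58.1 on log2 FPKM, other scalings, no filter, replicates 2 and 3 only, and each library left out. Replicate numbers were treated as pairing the samples. Deviations from the group means correlated at 0.734 to 0.929 in all 9 same-numbered pairs. Libraries of replicates 2 and 3 with unlike numbers correlated at 0.751 to 0.914, and replicate 1 with the others at -0.924 to -0.754. The correlations thus set replicate 1 apart but do not tell replicate 2 from replicate 3, whose pairing rests on the labels alone. Pair and replicate ratios used FPKM + 0.1. Every library's FPKM is given for a fixed set of members (NFE2L2, KEAP1, NQO1, GCLC, GCLM, TXNRD1, SRXN1, AKR1B10, AKR1C1), for those passing either fit and for those with a 2-fold replicate gap in every group. Fits were tested on simulated data. Sequences came from RefSeq (GRCh38.p14) and gene positions from GENCODE v29. Total counts of 13059082 to 20166451 set the precision of the count tests. Pathway genes outside the members are given by counts, with values for those that passed a fit. An item of that list is not reported here.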

Additional observations from a re-analysis of the deposited data

Results flagged for a closer look

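With the replicate block, 5 members (14.3%, against 17.6% of genes) differed between the siRNAs in a direct edgeR contrast of SiREV1#1 minus SiREV1#2. The log2 difference was 1.67 for GPX2, 0.66 for ALDH3A1, -1.0 for NQO1, -0.86 for SQSTM1 and -0.60 for BACH1. Another set of members lay on opposite sides of scramble after the 2 siRNAs in every same-numbered pair, which was not tested and shares the scramble libraries. How many of all genes did the same was not counted. For these the difference of the median log2 pair ratios, SiREV1#1 minus SiREV1#2, was 1.98 for GPX2, 3.11 for PGD, -0.43 for TXNRD1, -0.59 for AKR1B1 and -0.66 for SQSTM1. Some of these sides rest on log2 ratios near 0. In pair 1, PGD was at 0.01 after SiREV1#1 and -0.19 after SiREV1#2, and GPX2 was at -0.02 after SiREV1#2. In pair 2, TXNRD1 was at -0.02 after SiREV1#1 and AKR1B1 at 0.03 after SiREV1#2.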

How the results depend on the processing

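Under DESeq2, upper-quartile scaling, total counts, no filter, limma without a block and each library left out without a block, 0 members passed in each contrast. DESeq2 gave GPX2 no adjusted p after SiREV1#1 or between siRNAs. All-gene shares in these fits ran from 0 to 6.18%. They were highest in DESeq2, at 4.01, 1.52 and 6.18% (SiREV1#1, SiREV1#2, between siRNAs). With the replicate block, edgeR called 3, 0 and 5 members (SiREV1#1, SiREV1#2, between siRNAs), against 12.3, 1.91 and 17.6% of all genes. Blocked limma on log2(FPKM + 1) called 3, 1 and 8 members (8.57, 2.86 and 22.9%), against 10.1, 4.59 and 21.1% of all genes. Replicates 2 and 3 alone gave 22, 17 and 27 in edgeR (46.5, 38.4 and 54.4% of all genes) and 20, 22 and 28 in limma (33.8, 33.2 and 46.9% of all genes). Leaving out 1 library from the blocked fit, chosen after seeing the data, gave 2 to 10, 0 to 8 and 2 to 10, with the highest counts without SiREV1#1 replicate 1. All-gene shares in those fits ran from 2.28 to 24.3%, 0 to 11.7% and 3.71 to 28.5%, and were also highest without that library. Between siRNAs, 2 members passed without scramble replicate 2, scramble replicate 3 or SiREV1#1 replicate 3. SiREV1#2 replicate 3, with no counts of its own, was not left out. Leaving out replicate 1 or 2 of SiREV1#2 left that group with 1 count library. The pair and replicate-gap counts stayed within 1.5 times of the main count with another pseudocount and with a 1.5-fold limit.

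Directions turned for some single genes, and the cause was not tested. NFE2L2 after SiREV1#1 was -0.0265 with the block, -0.10 in limma with and without it and -0.11 with a pseudocount of 0.1. NQO1 after SiREV1#2 was -0.12 with the block, -0.20 in limma at either pseudocount and with the block, and -0.22 and -0.24 in replicates 2 and 3 (edgeR, limma). In replicates 2 and 3 (edgeR, limma), KEAP1 took values of 0.15 and 0.12 for SiREV1#1, against -0.20 and -0.17 for SiREV1#2. Without a block, leaving out 1 library gave, after SiREV1#1, -0.29 to 0.44 for NFE2L2, -0.41 to 0.40 for KEAP1 and -0.84 to 3.79 for GPX2. After SiREV1#2 it gave -0.71 to 0.64 for NFE2L2, -0.74 to 1.22 for KEAP1, -0.61 to 0.51 for NQO1, -3.66 to 0.74 for PGD and -3.56 to 0.64 for EPHX1. Between siRNAs it gave -1.34 to 4.26 for GPX2 and -0.29 to 1.35 for ALDH3A1. REV1 after SiREV1#1 kept its direction throughout, with edgeR, DESeq2 and limma adjusted p of 2.84e-12 to 0.384.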
